A study of Rattus norvegicus with 8 samples.

Results

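*Hox* genes encode homeodomain transcription factors that give cells of the embryo their position along the head-to-tail axis. In the rat they lie in 4 clusters (*Hoxa*, *Hoxb*, *Hoxc* and *Hoxd*), and genes at the same place in different clusters form a paralogue group that shares a number. Low-numbered groups are expressed from the hindbrain backwards and high-numbered groups only in the more caudal spinal cord, whereas the forebrain and midbrain, where the *substantia nigra* (SN) lies, develop without *Hox* expression. Adult hindbrain and spinal cord neurons keep part of this pattern, which makes *Hox* transcripts a readout of hindbrain position in a dissection.

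The *Hox* genes were taken as every gene whose RefSeq transcript on the array has a rat symbol made of Hoxa, Hoxb, Hoxc or Hoxd and a number. The reference lists 39 such genes, of which 28 had at least 1 probe, with 36 probes in all, among 16678 genes with a named probe. The 11 without a named probe, which were not analysed here, were *Hoxa3*, *Hoxa5*, *Hoxa9*, *Hoxa10*, *Hoxb1*, *Hoxb2*, *Hoxb6*, *Hoxc6*, *Hoxc13*, *Hoxd8* and *Hoxd11*.

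The arrays measured total RNA of the ipsilateral SN of adult female Sprague-Dawley rats, 20 weeks after a unilateral injection into the SN. Both groups received an adeno-associated viral vector (AAV6), which in AAV-αSyn carried human α-synuclein of the wild type. The AAV-Null vector carried no such transgene and was given at a lower titre, so that vector dose and transgene cannot be told apart. Each group had 4 arrays, numbered 1 to 4 as in the labels and described as separate biological replicates, and this number limits the precision. Neither group was uninjected tissue. In such bulk tissue, fewer cells of a type and less RNA per cell cannot be told apart. On each array 74.8% to 77.5% of spots were well above background, the scanner software's call that a spot exceeds its local background, and no spot was saturated. All 6 dopamine neuron genes listed, *Th* among them, were above background on all 8 arrays.

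Of the *Hox* genes above background on at least 1 array, 5 had a promoter sequence, and all but that of *Hoxa7* are shown. The first pair had a limma unadjusted p under 0.05 between the groups and the second pair did not. *Hoxa4* entered that comparison only through AAV-αSyn arrays, so nothing is read from this sorting. Each promoter runs from 250 bases before to 50 bases after the RefSeq transcription start (300 bases, build GRCr8, 5′ to 3′ on the gene's strand). Capitals mark a match on either strand to the Pbx-Hox site TGATNNAT, bound by Hox proteins together with their Pbx cofactors, or to the Meis site TGACAG, bound by the Meis cofactors. No match of one motif overlapped another in these windows.
*Hoxa2* promoter, chr4:82595643-82595942, minus strand: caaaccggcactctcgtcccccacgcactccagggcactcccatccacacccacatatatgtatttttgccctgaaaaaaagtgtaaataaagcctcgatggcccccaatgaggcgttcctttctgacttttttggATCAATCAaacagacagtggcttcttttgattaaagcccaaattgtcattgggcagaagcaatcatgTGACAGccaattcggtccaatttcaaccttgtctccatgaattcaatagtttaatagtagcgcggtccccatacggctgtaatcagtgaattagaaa
*Hoxa4* promoter, chr4:82622253-82622552, minus strand: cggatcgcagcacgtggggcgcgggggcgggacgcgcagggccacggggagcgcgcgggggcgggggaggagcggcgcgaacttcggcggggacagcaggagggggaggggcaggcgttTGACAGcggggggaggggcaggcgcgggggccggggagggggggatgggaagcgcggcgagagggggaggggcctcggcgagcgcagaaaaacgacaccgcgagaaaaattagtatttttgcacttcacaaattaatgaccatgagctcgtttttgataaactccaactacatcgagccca
*Hoxd1* promoter, chr3:80072791-80073090, plus strand: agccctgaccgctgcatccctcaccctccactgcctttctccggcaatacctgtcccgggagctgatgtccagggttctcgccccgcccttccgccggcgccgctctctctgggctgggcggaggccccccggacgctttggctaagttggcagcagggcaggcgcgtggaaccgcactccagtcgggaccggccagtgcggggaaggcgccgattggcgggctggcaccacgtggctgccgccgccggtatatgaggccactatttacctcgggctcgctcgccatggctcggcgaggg
*Hoxd3* promoter, chr3:80045876-80046175, plus strand: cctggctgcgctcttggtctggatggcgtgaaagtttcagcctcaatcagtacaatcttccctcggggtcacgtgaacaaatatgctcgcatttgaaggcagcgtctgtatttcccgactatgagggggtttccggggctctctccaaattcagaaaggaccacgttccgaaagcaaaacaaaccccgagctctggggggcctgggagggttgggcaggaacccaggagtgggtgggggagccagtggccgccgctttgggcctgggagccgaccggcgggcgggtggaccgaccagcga

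The *Hoxa2* window held a Pbx-Hox match 114 bases and a Meis match 47 bases before the start, and the *Hoxa4* window held a Meis match 131 bases before it. The *Hoxd1* and *Hoxd3* windows held neither motif. The *Hoxa7* window, not shown, held a Pbx-Hox match 34 bases after the start, and *Hoxa7* did not differ between the groups (limma unadjusted p = 0.754). A relation between these motifs and the differences was not tested. Of 33469 promoters of this length, 9.10% held the Pbx-Hox letters and 19.0% the Meis letters, so single matches are common. Over the 21 *Hox* promoters in the table, which belong to 20 genes, 4 held the Pbx-Hox letters (*Hoxa2*, *Hoxa7*, *Hoxb1* and *Hoxd11*) and 4 the Meis letters (*Hoxa2*, *Hoxa3*, *Hoxa4* and *Hoxa13*). The retinoic acid receptor half-site AGGTCA, through which retinoic acid acts on *Hox* genes in the embryo, was in 3 of them (*Hoxc4*, *Hoxd4* and *Hoxd10*) and in 16.2% of all promoters. *Hox* promoters had a median GC content of 62.3% and a median of 22 CpG dinucleotides, against 51.7% and 7 over all promoters. Within the 4 shown, *Hoxa2* stood lowest with 44.7% GC and 9 CpG dinucleotides, and *Hoxd1* highest in GC with 70%, while *Hoxa4* had the most CpG dinucleotides, 34. Such matches describe letters and not bound sites.

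Most *Hox* probes gave no signal above background in either group. Of the 36 probes, 10 (27.8%) were well above background on at least 1 of the 8 arrays, against 74.2% of all 45598 probes. These 10 probes belonged to 9 genes. The other 19 genes, whose 22 probes had a normalised log2 intensity between 1.09 and 3.46 on every array, included *Hoxb4*, *Hoxc4*, *Hoxd4*, *Hoxc5*, *Hoxa6*, *Hoxb7*, *Hoxb8*, *Hoxb9*, *Hoxc9*, *Hoxd9*, *Hoxc10*, *Hoxd10*, *Hoxa11*, *Hoxc12*, *Hoxd12*, *Hoxa13*, *Hoxb13* and *Hoxd13*. For comparison, the dimmest spot called well above background on an array had a log2 intensity between 2.51 and 3.5. A probe not well above background has only an upper bound, so these 19 genes were not detectable and are not shown to be silent.

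In AAV-Null, 4 *Hox* genes were above background on at least 1 array, namely *Hoxd1*, *Hoxa2*, *Hoxd3* and *Hoxc8*. On at least 1 AAV-αSyn array 9 were, the same 4 and *Hoxb3*, *Hoxa4*, *Hoxb5*, *Hoxa7* and *Hoxc11*. Only *Hoxd1* and *Hoxc8* were above background on all 8 arrays, and *Hoxa2* was the third gene above background on all 4 AAV-αSyn arrays. No *Hox* gene was above background on AAV-Null arrays alone. Array by array, 3, 4, 4 and 3 *Hox* genes were above background on AAV-Null arrays 1 to 4, and 4, 6, 6 and 7 on AAV-αSyn arrays 1 to 4. The groups touched at 4 genes, the count of AAV-αSyn array 1.

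The calls fell mostly in the low paralogue groups. Of 9 genes with a probe in groups 1 to 4, 3 were above background in AAV-Null and 5 in AAV-αSyn. Of 7 genes in groups 5 to 8, 1 was above background in AAV-Null and 3 in AAV-αSyn. Of 12 genes in groups 9 to 13, none was above background in AAV-Null, and *Hoxc11* alone was in AAV-αSyn. No gene of groups 6, 9, 10, 12 or 13 was above background on any of the 8 arrays. Among the 4 clusters, with 7 genes measured in each, *Hoxa* had 1 gene above background in AAV-Null and 3 in AAV-αSyn, *Hoxb* 0 and 2, *Hoxc* 1 and 2, and *Hoxd* 2 and 2.

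**Figure D1:**
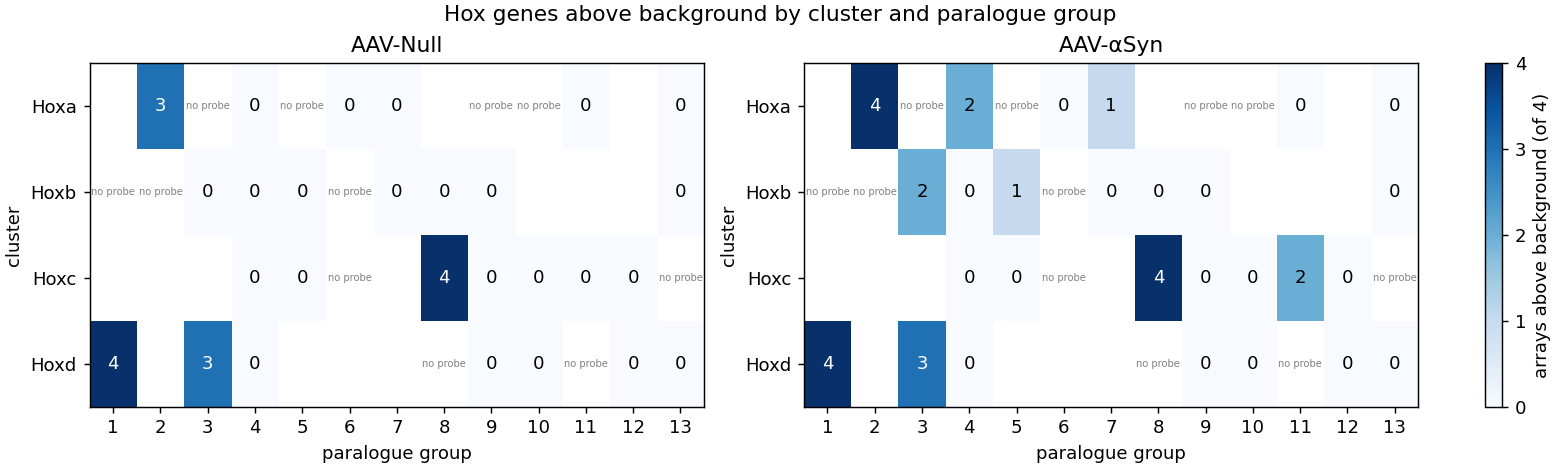
Each cell is a *Hox* gene, by cluster (rows) and paralogue group (columns), and its number and shade give on how many of the 4 arrays of the group it was well above background. "No probe" marks genes of the reference without a named probe, and empty cells are places where the rat has no gene or where a gene is not reported. *Hoxd1* and *Hoxc8* stand at 4 in both panels, and *Hoxb3*, *Hoxa4*, *Hoxb5*, *Hoxa7* and *Hoxc11* have a number above 0 only in the AAV-αSyn panel.

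Of the 36 *Hox* probes, 4 were above background on at least 2 AAV-αSyn arrays and on 0 AAV-Null arrays, a pattern held by 0.441% of all probes. They were the probes of *Hoxb3*, *Hoxa4* and *Hoxc11* and one of the pair of *Hoxa2* probes. The opposite pattern was held by 0 *Hox* probes and by 0.281% of all probes. *Hoxb5* and *Hoxa7* were above background on AAV-αSyn array 4 alone. The dimmest called probe of this array was the dimmest of the 8 arrays (log2 2.51), close to that of AAV-Null array 1 (2.56), where 3 *Hox* genes were called. AAV-αSyn array 4 also had the highest median intensity (338, against 261 to 310 on the others). The part of these intensities in the calls was not tested. Without this array 7 *Hox* genes were above background in AAV-αSyn.

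Levels were compared for the 9 genes with limma on quantile normalised log2 intensities, AAV-αSyn minus AAV-Null, in a fit over the 33853 probes above background on at least 1 array. Of these, 5 genes entered the fit only because of their AAV-αSyn arrays. *Hoxa2* and *Hoxa4* were higher in AAV-αSyn at an unadjusted p under 0.05, which 3.31% of all probes were, and no *Hox* gene was lower, which 2.32% of all probes were. *Hoxa4* was among the 5 genes kept through AAV-αSyn arrays, and its probe is the gene's brightest only on those arrays, so the filter in part fixes this count too and nothing is read from it. None of the 9 passed an adjusted p of 0.05 (between 0.606 and 0.999 by limma over their 10 probes). Of the 33853 probes tested, 5 (0.0148%) passed this threshold. For p-values and for overlap of the groups, here and below, shares of all probes are over these 33853. All values of the AAV-αSyn arrays lay above all those of the AAV-Null arrays for 3 of the 10 *Hox* probes and below them for 0, against 2.57% and 1.26% of all probes. Of these 3, the probe of *Hoxa4* and the dimmer *Hoxa2* probe entered the fit only through AAV-αSyn arrays, so the same holds for this count. The median difference of the 9 genes was −0.0026 on the log2 scale, beside a median of 0.0083 over all probes tested. Of the 9 genes 4 were higher and 5 lower, with a range from −0.15 to 2.27. The median is the value of *Hoxc11*, one of the 5 genes not above background on any AAV-Null array. The signs and sizes of the differences of these 5 are not measured ones, so nothing is read from this median. The values of single genes follow in the order of the paralogue groups.

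*Hoxd1*, of paralogue group 1, was above background on every array. Its log2 intensity was 4.34, 4.04, 4.0 and 4.09 on AAV-Null arrays 1 to 4 and 4.55, 4.45, 4.22 and 3.96 on AAV-αSyn arrays 1 to 4. The groups overlapped, with AAV-αSyn array 4 the lowest of the 8. The difference was 0.18 ± 0.14 (SE; limma unadjusted p = 0.252, 95% interval −0.15 to 0.51).

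*Hoxa2* patterns the hindbrain and has the most rostral limit of expression of the family. Its brighter probe (A_44_P1359563) read 5.07, 4.58, 4.72 and 3.90 on AAV-Null arrays 1 to 4, where array 4 was not well above background, and 5.16, 5.76, 5.63 and 5.18 on AAV-αSyn arrays 1 to 4. The AAV-αSyn arrays were all higher than the AAV-Null arrays, although AAV-Null array 1 came close to the lowest of them. The means were 4.57 ± 0.49 and 5.43 ± 0.31 (SD, n = 4), and the difference was 0.86 ± 0.26 (SE; limma unadjusted p = 0.0097, adjusted p = 0.712, exact permutation p = 0.0286). This permutation p is the smallest that 4 arrays against 4 can give in a two-sided test.

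The other *Hoxa2* probe (A_44_P1010087) was not well above background on any AAV-Null array, with 1.37, 1.58, 1.72 and 1.83 on arrays 1 to 4. It read 3.80, 4.04, 4.28 and 1.91 on AAV-αSyn arrays 1 to 4, the first 3 of them well above background. AAV-αSyn array 4 stood at the level of the AAV-Null arrays, and the other 3 stood far above it. The fitted difference was 1.88 ± 0.48 (SE; limma unadjusted p = 0.0041, adjusted p = 0.606), and in a fit of all probes with no filter on background it was 2.06 (limma unadjusted p = 0.0026). Its size is not a measured one, since the AAV-Null values were not above background. With the dimmest called spot of each AAV-Null array in place of the probe's own values, the AAV-αSyn mean was 1.30-fold higher, and as some brighter spots of *Hox* probes were not called, this is no strict lower bound. The difference depended on AAV-αSyn array 4: without it, and with the probe still kept only through AAV-αSyn arrays, it was 2.40 (limma adjusted p = 0.0076), which is given as a description and not as a call.

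In paralogue group 3, whose genes are expressed in the caudal hindbrain, *Hoxb3* and *Hoxd3* were tested and neither passed an unadjusted p of 0.05. One of 3 *Hoxb3* probes read 1.30, 1.5, 1.44 and 2.04 on AAV-Null arrays 1 to 4 and 1.41, 3.95, 4.19 and 1.58 on AAV-αSyn arrays 1 to 4. AAV-αSyn arrays 2 and 3 were well above background and apart from the other 6 arrays, which overlapped. The difference of 1.21 ± 0.66 (SE) did not pass the test (limma unadjusted p = 0.103, 95% interval −0.31 to 2.73). Its size is not a measured one, as no AAV-Null array was above background, and with normexp it was 0.13. It was 1.66 without AAV-αSyn array 1 (limma unadjusted p = 0.030) and 1.59 without array 4 (limma unadjusted p = 0.041), and 0.81 and 0.74 without AAV-αSyn arrays 2 and 3, the arrays above background. The other *Hoxb3* probes stayed between 1.23 and 1.36 on all arrays.

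*Hoxd3* read 3.14, 3.82, 4.21 and 4.28 on AAV-Null arrays 1 to 4 and 3.49, 4.21, 4.15 and 3.36 on AAV-αSyn arrays 1 to 4. Each group had 3 arrays above background, and the groups overlapped over nearly their whole range. The difference was −0.06 ± 0.30 (SE; limma unadjusted p = 0.835, 95% interval −0.76 to 0.63). Its second probe stayed at 1.07 to 1.08 on all arrays.

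*Hoxa4*, a gene of the caudal hindbrain and spinal cord, had a signal above background in AAV-αSyn alone. Its probe A_42_P754122 read 1.18, 1.24, 1.23 and 1.25 on AAV-Null arrays 1 to 4, none of them well above background, and 2.59, 4.23, 5.5 and 1.63 on AAV-αSyn arrays 1 to 4. Every AAV-αSyn array was higher than every AAV-Null array, but only arrays 2 and 3 were well above background and the 4 values spread widely (3.49 ± 1.72, SD, n = 4). The fitted difference was 2.27 ± 0.74 (SE; limma unadjusted p = 0.0154, adjusted p = 0.760). The probe passed the filter only through AAV-αSyn arrays, and in the fit with no filter the difference was 2.33 (limma unadjusted p = 0.0175). With the dimmest called spot of each AAV-Null array in place of the probe's own values, the AAV-αSyn mean was 1.28-fold higher, again no strict lower bound, so the size of the difference cannot be ranked against that of *Hoxa2*. The second *Hoxa4* probe was not above background on any array (1.32 to 3.56) and did not show the same order, since its highest values were 3.56 on an array of AAV-Null (array 2) and 3.55 on array 2 of AAV-αSyn. *Hoxb4*, *Hoxc4* and *Hoxd4*, the other members of its paralogue group, were not above background.

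None of the 4 tested genes of paralogue groups 5 to 11 passed an unadjusted p of 0.05. *Hoxc8*, a gene of the spinal cord at the level of the forelimb, was above background on all 8 arrays, with 4.19, 4.72, 4.82 and 4.95 on AAV-Null arrays 1 to 4 and 4.51, 4.61, 4.95 and 4.51 on AAV-αSyn arrays 1 to 4. Its difference was −0.02 ± 0.18 (SE; limma unadjusted p = 0.894, 95% interval −0.44 to 0.39), and the AAV-αSyn values but the highest lay within the range of the AAV-Null values. *Hoxc8* is thus the one gene outside groups 1 to 4 with a signal in both groups.

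*Hoxc11* was not well above background on any AAV-Null array (2.88, 3.45, 3.51 and 3.73 on arrays 1 to 4), and read 4.45, 2.93, 2.89 and 3.28 on AAV-αSyn arrays 1 to 4. AAV-αSyn arrays 1 and 4 were called above background, although array 4 was dimmer than 3 AAV-Null arrays that were not, because the call is made for each spot and array. The difference was −0.0026 ± 0.36 (SE; limma unadjusted p = 0.994). *Hoxb5* ranged from 3.15 to 3.48 in AAV-Null and from 2.92 to 3.61 in AAV-αSyn (difference −0.06 ± 0.18, SE; limma unadjusted p = 0.724). *Hoxa7* ranged from 1.56 to 2.60 in AAV-Null and read 1.39, 1.53, 1.61 and 3.31 on AAV-αSyn arrays 1 to 4 (difference −0.15 ± 0.46, SE; limma unadjusted p = 0.754). None of these 3 genes was above background on any AAV-Null array, so the signs and sizes of their differences are not measured ones. A comparison of their group means therefore decides nothing.

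**Figure D2:**
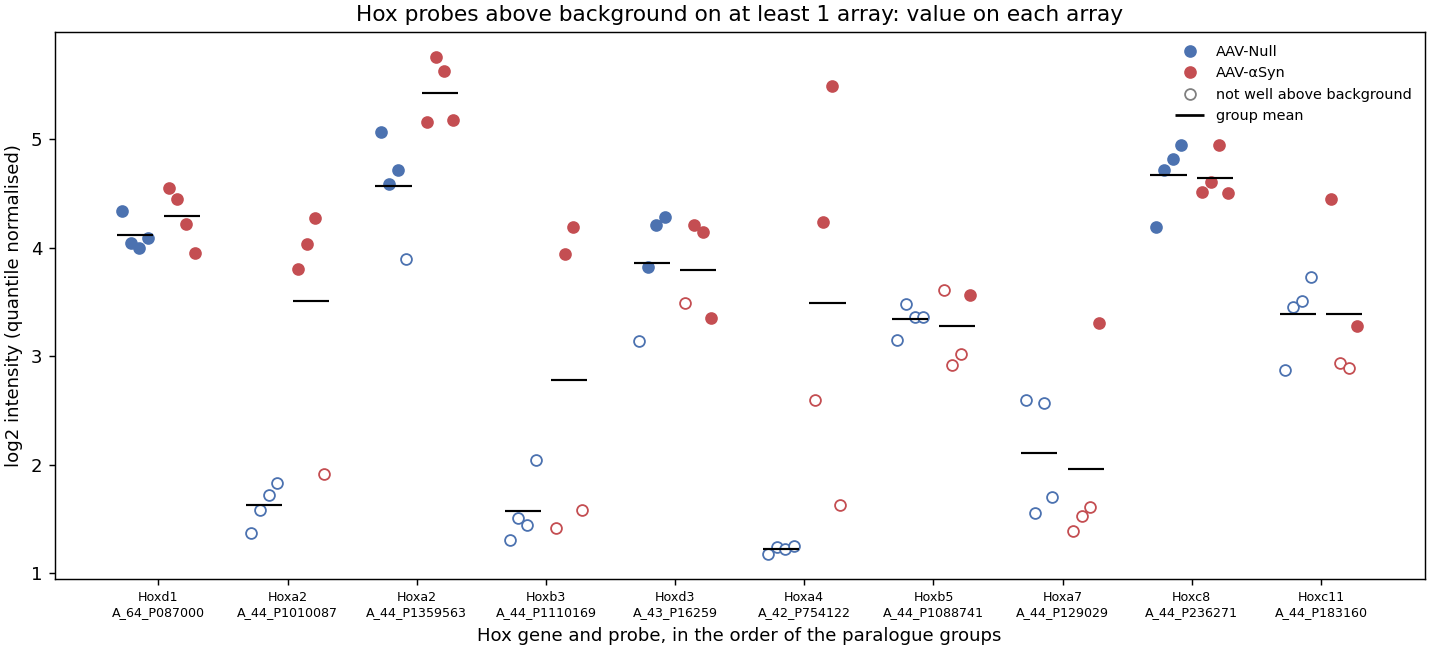
Log2 intensity after quantile normalisation (vertical axis) of the 10 *Hox* probes above background on at least 1 array, in the order of the paralogue groups (horizontal axis), with a point for each array and a line at each group mean; open points were not well above background. The groups are apart for both *Hoxa2* probes and for *Hoxa4*, and AAV-αSyn arrays 2 and 3 alone are high for *Hoxb3* and highest for *Hoxa4* (4.23 and 5.5).

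**Figure D3:**
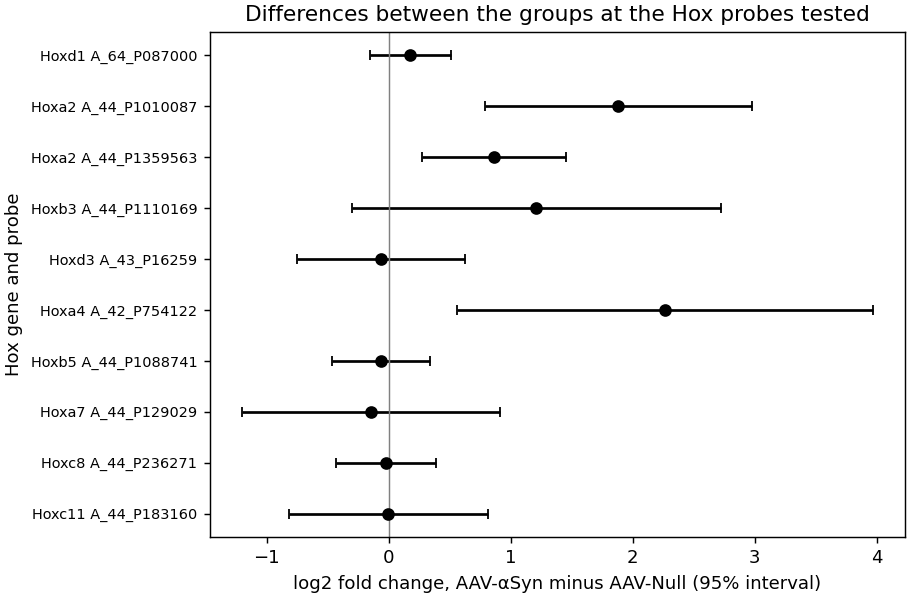
Difference in log2 intensity, AAV-αSyn minus AAV-Null (horizontal axis), of the 10 *Hox* probes (vertical axis), with the 95% interval of the limma fit as a bar. The intervals of both *Hoxa2* probes (0.27 to 1.45 and 0.79 to 2.98) and of *Hoxa4* (0.56 to 3.97) lie above 0 and all others include 0.

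The probes of a gene did not always agree. Of the 7 *Hox* genes with more than 1 probe, *Hoxa2* had both probes above background, *Hoxb3*, *Hoxd3* and *Hoxa4* had 1, and the others, such as *Hoxc10* and *Hoxa11*, had none. Transcripts of neighbouring *Hox* genes overlap and the homeobox is alike in paralogues, and the position of each probe in its transcript was not given in the files, so signal shared between *Hox* genes was not tested. *Hoxa2* and *Hoxa4* lie in the same cluster, and *Hoxa6*, further along this cluster and also with a probe, was not above background.

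The arrays lay on 1 slide in 2 columns, each with 2 arrays of either group, and the differences were also taken within each column, as a description. Within the first column *Hoxa4* differed by 2.80, *Hoxa2* by 1.15 and 2.34 with its brighter and dimmer probe, and *Hoxb3* by 1.03, which rests on AAV-αSyn array 3, since array 1 (1.41) was below both AAV-Null arrays of this column. Within the second column the differences were 1.73, 0.57, 1.43 and 1.39, in the same order. With background correction by normexp and an offset of 50, which compresses dim signals, the differences were smaller. They were 0.29 and 0.20 for the brighter and dimmer *Hoxa2* probe and 0.41 for *Hoxa4*. The limma unadjusted p stayed under 0.05 for all 3 probes. *Hoxa4* and the dimmer *Hoxa2* probe were kept only through AAV-αSyn arrays, so nothing is read from their p or from their differences within columns.

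The TALE homeodomain proteins, Meis, Pbx and Pknox, bind DNA together with Hox proteins. All 8 of these cofactor genes with a probe were above background on all 8 arrays, and 2 were higher and 0 lower in AAV-αSyn at an unadjusted p under 0.05, beside 3.31% and 2.32% of all probes, with a median difference of −0.01 over the 8 genes. *Meis1* read 8.41, 8.39, 8.07 and 8.15 on AAV-Null arrays 1 to 4 and 8.85, 9.04, 8.92 and 8.95 on AAV-αSyn arrays 1 to 4, a difference of 0.68 ± 0.10 (SE; limma adjusted p = 0.246) with no overlap. *Pbx3* was higher by 0.40 ± 0.14 (SE; limma adjusted p = 0.773), also with no overlap. The cofactors were thus present on every array, unlike most *Hox* genes.

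Of 13 measured genes that control *Hox* expression in the embryo, 11 were above background, and 2 were higher and 1 lower at an unadjusted p under 0.05, beside the same 3.31% and 2.32% of all probes, with a median difference of 0.03. *Cyp26b1*, an enzyme that breaks down retinoic acid, ranged from 9.57 to 10.6 in AAV-Null and from 11.4 to 11.6 in AAV-αSyn, a difference of 1.39 ± 0.20 (SE; limma adjusted p = 0.240). *Cyp26a1*, a related enzyme, was higher by 0.40 ± 0.11 (SE; limma adjusted p = 0.655). *Gbx2*, which sets the border between midbrain and hindbrain in the embryo and is also a gene of the thalamus, was lower in AAV-αSyn (−2.0 ± 0.85, SE; limma adjusted p = 0.876), with AAV-αSyn array 4 at 5.71 and the other AAV-αSyn arrays at 8.69 to 9.89. The AAV-Null arrays read 9.75 to 11.2, so the groups overlapped (exact permutation p = 0.057). *Cdx2* and *Cdx4*, activators of *Hox* genes in the embryo's trunk, were not above background.

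Of the genes that flank the 4 clusters, 5 of 6 measured were above background, and *Evx1* alone passed an unadjusted p of 0.05 (3.31% of all probes were higher), with a median difference of 0.10 over the 5. *Evx1* is the next protein-coding gene beside *Hoxa13*, at the end of the *Hoxa* cluster away from *Hoxa2* and *Hoxa4*, and marks a class of spinal cord and hindbrain interneurons. It read 8.25, 7.97, 8.32 and 7.53 on AAV-Null arrays 1 to 4 and 9.39, 9.83, 8.83 and 9.82 on AAV-αSyn arrays 1 to 4, a difference of 1.45 ± 0.26 (SE; limma adjusted p = 0.455) with no overlap. *Skap2*, at the opposite end of the same cluster, differed by 0.10 ± 0.09 (SE; limma unadjusted p = 0.299) and *Mtx2*, beside *Hoxd1*, by 0.11 ± 0.09 (SE; limma unadjusted p = 0.227). *Hoxa13* itself was not above background on any array.

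Genes of other positions and cell types were read on the same arrays, and their part in the *Hox* values was not tested. Of 12 measured hindbrain neuron genes 9 were above background, 4 were higher and 0 lower at an unadjusted p under 0.05, beside 3.31% and 2.32% of all probes, and the median difference was 1.28. *Slc6a5*, the transporter of glycine neurons, passed the adjustment (7.69 to 8.0 in AAV-Null and 8.97 to 9.45 in AAV-αSyn, difference 1.28 ± 0.12, SE; limma adjusted p = 0.0424). The others were *Tph2* (2.35) and *Slc6a4* (2.30), of serotonin neurons, which also lie in the midbrain raphe, and *Dbh*, the enzyme of noradrenaline neurons, none past the adjustment. *Tph2* and *Slc6a4* overlapped between the groups, as AAV-Null array 3 read 10.6 and 8.91, within the range of the AAV-αSyn arrays. *Dbh* entered the fit only through AAV-αSyn arrays. *Slc6a2*, the noradrenaline transporter, was above background on 2 AAV-Null arrays and 1 AAV-αSyn array with a difference of −0.39. *Slc6a9* (−0.05), *Glra1* (0.06), *Atoh1* (−0.22) and *Fev* (1.47) also did not pass an unadjusted p of 0.05 by limma. The summed intensity of the list ranged from 5624 to 13248 in AAV-Null and from 9089 to 11969 in AAV-αSyn. *Phox2a*, *Lbx1* and *Ptf1a*, further hindbrain genes, were not above background.

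*Dbh* was not above background on AAV-Null arrays and read 1.31, 6.27, 7.30 and 7.38 on AAV-αSyn arrays 1 to 4. The arrays high for *Dbh* and those high for *Hoxa4* and *Hoxb3* were the same for arrays 2 and 3, but array 4 was the highest for *Dbh* and *Tph2* and the lowest AAV-αSyn array for *Hoxa4* and the dimmer *Hoxa2* probe. On AAV-αSyn array 1 *Dbh* was at the level of the AAV-Null arrays, and so was *Hoxb3* (1.41). Both *Hoxa2* probes were above the AAV-Null arrays there, the brighter one by little (5.16 against 5.07 on AAV-Null array 1). *Hoxa4* (2.59) was also above them but not well above background. For *Slc6a5* and the brighter *Hoxa2* probe the groups did not overlap, with the 4 AAV-αSyn arrays the higher ones. These genes were chosen after their values were seen, and the relation between them was not tested.

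Of 15 forebrain and midbrain position genes measured, all above background on at least 1 array, 0 were higher and 4 lower at an unadjusted p under 0.05, with a median difference of −0.34. For this and the following lists the shares over all probes were again 3.31% higher and 2.32% lower. The 4 were *Otx2* (−0.49), which keeps *Hox*-free territory in the embryo, *Foxa1* (−0.66), *Pitx3* (−0.78) and *Emx2* (−0.31), none past the adjustment. Of 6 thalamus genes 0 were higher and 3 lower (median −0.71), with a summed intensity of 59501 to 76569 in AAV-Null and 43178 to 65444 in AAV-αSyn. Of the 6 dopamine neuron genes 0 were higher and 3 lower (median −0.33), with 153059 to 195030 and 119405 to 130003. Of 6 choroid plexus genes 1 was higher (median 0.05), namely *Sostdc1* (1.38, limma adjusted p = 0.484, no overlap). The summed intensity of the 6 was 322 to 801 in AAV-Null and 395 to 5542 in AAV-αSyn. The 5542 is that of AAV-αSyn array 2, one of the pair of arrays above background for *Hoxa4* and *Hoxb3*, where *Ttr*, the main transcript of the choroid plexus, read 12.3 against 6.69 to 8.59 on the other AAV-αSyn arrays. No gene of the cortex and hippocampus or blood lists passed an unadjusted p of 0.05 (medians 0.14 and −0.23).

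**Figure D4:**
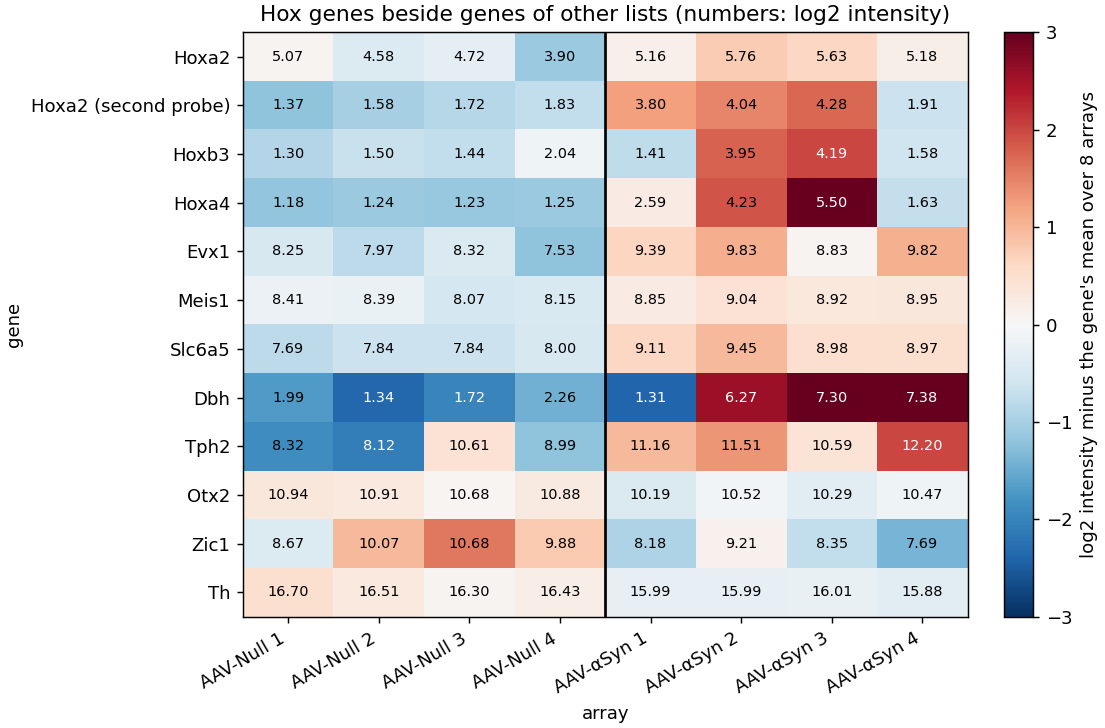
Log2 intensity on each of the 8 arrays (columns) for *Hox* probes and for genes of the other lists (rows), with the colour giving the difference from the gene's mean over the 8 arrays, capped at 3 either way. *Hoxa4* is highest on AAV-αSyn arrays 2 and 3 (4.23 and 5.5) and low on array 4, where *Dbh* (7.38) and *Tph2* (12.2) are highest.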

How the data were processed

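The authors hybridised Cy3-labelled cRNA of 8 SN samples to one-colour Agilent rat arrays and extracted spot intensities with Agilent Feature Extraction (version 11.5.1.1 in the labels and 12.0.3.2 in the file headers). The deposited scanner files hold each spot's background-corrected, processed intensity, and a deposited table holds the authors' quantile normalised log2 values, used here as an alternative. All 4 deposited arrays per group were used, more than the methods describe. Here, control spots and outlier spots (268 to 418 per array) were left out, and a probe was kept if it was well above background on at least 1 array, which left 33853 of 45598 probes. Log2 intensities were quantile normalised, spots of a probe averaged, and the groups compared with limma 3.58.1 in R 4.3.3 (lmFit and eBayes, two-sided, Benjamini-Hochberg over all probes tested). Single probes were also compared by an exact permutation test over the arrays. Values of probes not kept come from a normalisation of all probes. The fit was tested on simulated data.

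Probes were named through their RefSeq accession and the GRCr8 gene table (21229 probes named). Each *Hox* gene is represented by its brightest probe, and counted above background where any probe was. A gene that is included in the counts is not reported by name here. The genes of the other lists were given by counts. Values are printed for only some of those past an unadjusted p of 0.05, and for a few others. These were chosen after their values were seen. The members and lists were chosen with earlier results of these data known. Promoters are those of RefSeq. Alternatives covered scaling, background correction, the filter, the deposited values, an intensity trend, blocks and each array left out.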

Additional observations from a re-analysis of the deposited data

Results flagged for a closer look

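Within the AAV-αSyn group, the *Hoxa7* probe A_44_P129029 read 3.31 on array 4 and 1.39 to 1.61 on the other 3, and the gap to the nearest array made up 0.885 of the group's whole range. It was the 1 case among 20 groups of 4 values of *Hox* probes examined in this way, where chance gives about 1.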

How the results depend on the processing

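Under 17 alternatives to the processing, the number of *Hox* genes past the adjusted p was 0 throughout with each gene's brightest probe. The dimmer *Hoxa2* probe had an adjusted p of 0.0076 by limma without AAV-αSyn replicate 4, which stood at the AAV-Null level for this probe. *Hoxa2* and *Hoxa4* kept their direction and an unadjusted p under 0.05 wherever they were tested. *Hoxa4* and the dimmer *Hoxa2* probe were kept only through AAV-αSyn arrays, so nothing is read from these values for them. With a filter for probes above background on at least 4 arrays, 4 genes were tested and 1 passed an unadjusted p of 0.05, since *Hoxa4* was no longer tested. The median difference of the genes tested ranged from 0.011 to 0.289 when each array was left out in turn (0.16 without AAV-αSyn replicate 3 and 0.29, over 7 genes, without AAV-αSyn replicate 4). Leaving out arrays moved *Hoxa4* between 1.62 and 2.83 and *Hoxb3* between 0.74 and 1.66, the latter with an unadjusted p of 0.030 without AAV-αSyn replicate 1 and 0.041 without AAV-αSyn replicate 4 by limma.

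Differences near 0 changed sign, and the cause was not tested. With cyclic loess *Hoxc11* was 0.011, and without a filter 0.00020. With normexp *Hoxb5* was 0.0044, *Hoxa7* 0.011, *Hoxc11* 0.037 and *Hoxc8* 0.0046. When each array was left out, *Hoxa7* ranged from −0.33 to 0.049, *Hoxb5* from −0.17 to 0.055, *Hoxc11* from −0.36 to 0.16, *Hoxc8* from −0.18 to 0.067 and *Hoxd3* from −0.31 to 0.086.

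Arrays that share a replicate number also lay in the same row of the slide. They were not treated as pairs, because the correlations of their deviations from the group means were 0.14, 0.27, 0.041 and −0.0022. With the replicate block 2 *Hox* genes passed an unadjusted p of 0.05 and the median difference was −0.0026. Signals near background limit what can be seen of the 19 genes not detected, and an upper bound is all that the AAV-Null arrays give for *Hoxa4*.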
